A study of Mus musculus with 22 samples.

Results

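The Etv6 gene on mouse chromosome 6 carried a dense run of peaks of histone H3 acetylated at lysine 27 (H3K27ac). It reached from the promoter to near exon 3, with few peaks beyond. Etv6 lies on the + strand at chr6:134035700-134270158 of GRCm38, is 234 kb long and has 8 exons in its main transcript. The gene was chosen by the number of H3K27ac peaks it held, so that number and what follows from it are given as a description. The 63, 75 and 71 peaks of replicates 1, 2 and 3 that overlapped the gene body or lay within 50 kb of it were taken, out of 23410, 25963 and 23758 peaks in all. Of these, 63, 73 and 70 overlapped the gene body itself (68.7 ± 5.13, SD, n = 3). Merging overlapping peaks of the 3 libraries gave 123 regions at Etv6, of 34595 regions over the genome.

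The study asked how loss of Bcor, an X-linked subunit of a Polycomb repressive complex, changes blood cell progenitors, and H3K27ac was profiled to map enhancers in the mutant cells. The series lists 22 samples, of which the 3 H3K27ac chromatin immunoprecipitation sequencing (ChIP-seq) libraries of BcorΔE9-10 cells were analysed and the other 19 were not analysed here. All 3 mice were C57BL/6 males of genotype scl-Cre-ERT +; Bcorfl/y, given 1 mg tamoxifen intraperitoneally on 5 consecutive days at an age of 3 to 6 months and studied 20 weeks later. Myeloid progenitors (Lin-cKIT+Sca-1-, KL cells) had been sorted from their bone marrow. Tamoxifen activates a Cre recombinase active in haematopoietic stem cells, which removes exons 9 and 10 of Bcor and leaves an allele with an early stop codon. The deletion was therefore induced in stem cells and read out in their progeny. No H3K27ac library of another genotype was analysed here, and every comparison below is between or within these 3 libraries.

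Depth inferred from the background level was 18.04, 18.9 and 19.3 M reads, and the weakest summit called in any list held 8, 8 and 9 fragments. In these cells 6 of 6 marker genes of myeloid progenitors, such as Kit and Cebpa, had a peak within 2.5 kb of a transcription start site (TSS) in every library. No marker of T cells (2 genes), neutrophils (3) or non-haematopoietic cells (3) did, although Ngp had 1 in a single library. Over all protein-coding genes that share was 43.9%.

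Etv6 is a transcriptional repressor of the ETS family, whose members bind DNA through a conserved domain around a GGAA core. It is required for haematopoiesis in the adult bone marrow, and it is a recurrent partner in leukaemia gene fusions. H3K27ac is laid down by the acetyltransferases p300 and CBP on nucleosomes flanking active promoters and enhancers, and a long cluster of such enhancers is often called a super-enhancer. The paper lists Etv6 among transcription factors differentially expressed in the mutant cells, but not among those it also associated with super-enhancers. Super-enhancers were not called here.

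The sequences shown are the 200 bases at the strongest summit of the promoter region, which had the highest enrichment at the locus, and of the 5 distal regions with the highest mean enrichment among those found in all 3 libraries. They are given on the + strand of GRCm38, which is the sense strand of Etv6. Capitals mark a match to 1 of the 9 motifs searched, on either strand. These were AGATAA for GATA factors, TGTGGT for RUNX factors, the strict CCGGAA and the looser GAGGAA for the ETS family, the E-box letters CAGCTG as well as the variants CAGATG and the E2A-like CACCTG, the letters TTGCNNAA for C/EBP factors and TGANTCA for AP-1.
promoter, chr6:134035367-134035566: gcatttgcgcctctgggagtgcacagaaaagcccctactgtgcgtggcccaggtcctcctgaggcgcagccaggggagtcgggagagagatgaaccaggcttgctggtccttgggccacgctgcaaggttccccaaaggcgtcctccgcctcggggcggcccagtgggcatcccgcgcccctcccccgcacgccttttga
distal 1, intron 1, chr6:134059463-134059662: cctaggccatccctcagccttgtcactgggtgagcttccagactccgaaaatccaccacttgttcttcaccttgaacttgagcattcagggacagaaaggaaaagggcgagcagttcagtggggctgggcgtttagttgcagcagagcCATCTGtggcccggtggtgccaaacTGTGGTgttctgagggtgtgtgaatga
distal 2, intron 2, chr6:134186004-134186203: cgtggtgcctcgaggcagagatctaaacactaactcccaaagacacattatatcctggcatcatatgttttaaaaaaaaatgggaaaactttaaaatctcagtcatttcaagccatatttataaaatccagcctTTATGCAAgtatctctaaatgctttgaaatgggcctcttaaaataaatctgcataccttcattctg
distal 3, intron 1, chr6:134120320-134120519: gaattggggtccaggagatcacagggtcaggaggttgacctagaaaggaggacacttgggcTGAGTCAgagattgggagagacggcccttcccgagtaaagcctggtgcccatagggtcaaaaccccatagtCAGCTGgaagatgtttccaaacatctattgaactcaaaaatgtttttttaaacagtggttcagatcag
distal 4, intron 1, chr6:134061274-134061473: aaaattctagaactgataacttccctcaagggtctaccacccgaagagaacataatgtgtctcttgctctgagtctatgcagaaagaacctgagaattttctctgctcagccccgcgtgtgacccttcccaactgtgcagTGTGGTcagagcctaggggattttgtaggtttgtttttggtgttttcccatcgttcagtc
distal 5, intron 1, chr6:134134612-134134811: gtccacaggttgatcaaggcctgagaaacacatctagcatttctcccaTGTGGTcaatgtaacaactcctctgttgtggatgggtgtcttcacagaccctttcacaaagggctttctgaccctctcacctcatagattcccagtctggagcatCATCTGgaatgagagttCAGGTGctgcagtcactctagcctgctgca

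The promoter window had a GC content of 67.5% with 13 CpG dinucleotides and held none of the 9 motifs, each of which was in 3.24% to 17.6% of 19819 TSS-proximal windows of other loci. The distal windows were less rich in GC, from 35% in distal 2 to 54.5% in distal 1, with 0 to 4 CpG dinucleotides. Each distal window held 1 to 3 motif matches. The RUNX letters were present in distal 1, 4 and 5, starting 73, 40 and 52 bases from the summit. Distal 2 held the C/EBP letters 34 bases from its summit, and distal 3 held the AP-1 letters 39 bases and the CAGCTG E-box 32 bases from its summit. A match describes the letters of the window and says nothing about binding.

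The promoter peak was the strongest at Etv6 in each library. It lay in the region chr6:134034031-134036772, which holds the TSS and the whole of exon 1. Fold enrichment, a ratio of the ChIP signal at the summit to its local background, was 22.3, 16.96 and 22.1 in replicates 1, 2 and 3 (20.5 ± 3.03, SD, n = 3), from 102, 77 and 107 fragments. The strongest summits lay 233, 264 and 210 bp upstream of the TSS, a spread of 54 bp. In their libraries these values exceeded 96.5%, 92.7% and 94.9% of all TSS-proximal peaks, which had median fold enrichments of 6.15, 6.00 and 7.08. In replicates 2 and 3 a weak peak further upstream was listed separately, with summits 1361 and 1519 bp from the TSS and fold enrichments of 3.04 and 3.98.

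**Figure D1:**
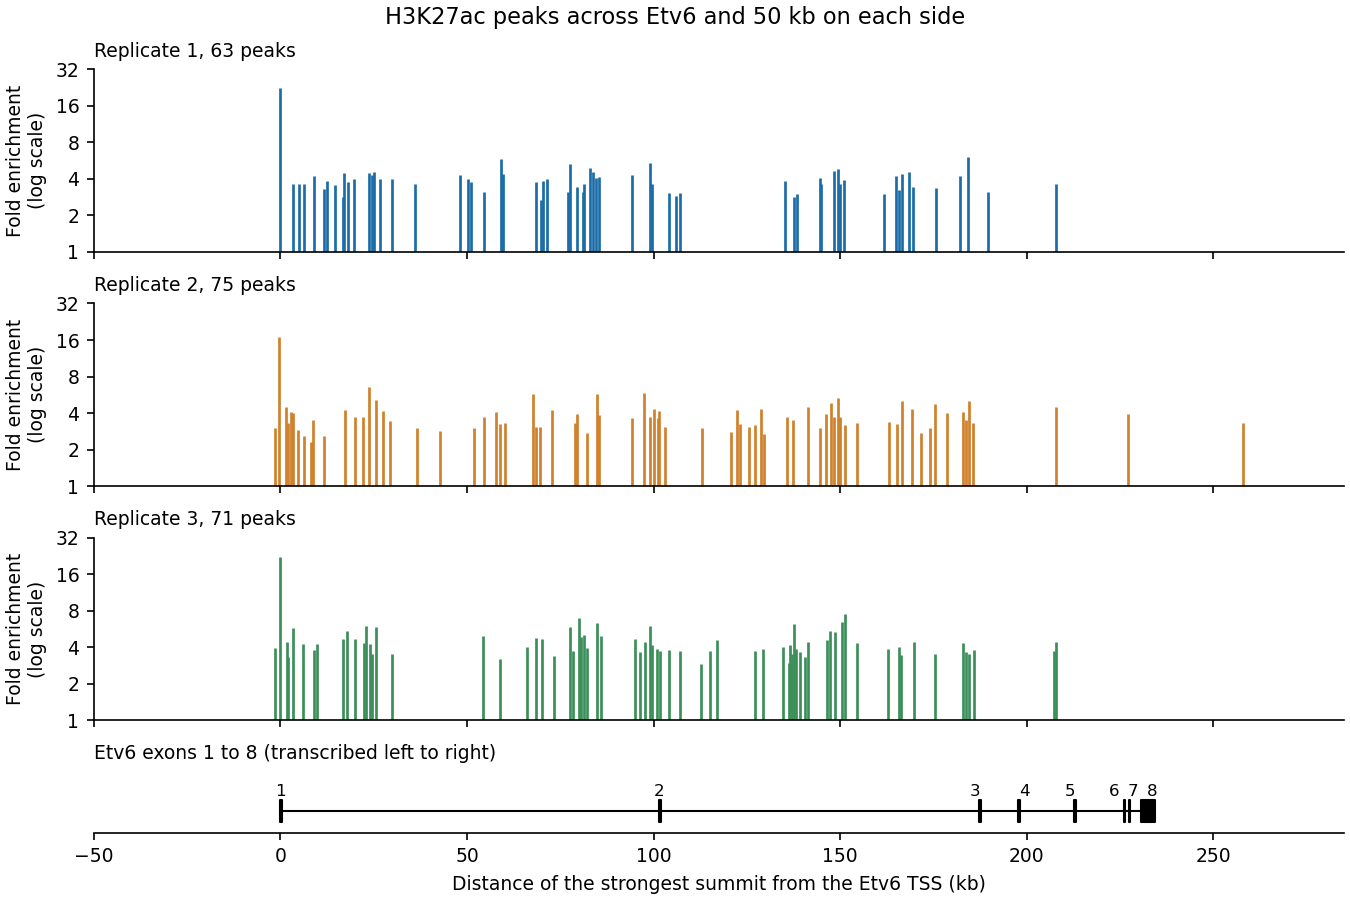
H3K27ac peaks across Etv6 and 50 kb on each side, 1 panel for each replicate. Each line stands at the strongest summit of a peak, by its distance from the TSS in kb, and its height is the fold enrichment on a log scale; the bottom panel gives exons 1 to 8. The promoter peak reached 16.96 to 22.3, all other peaks stayed at or below 7.48, and almost all lay between the TSS and exon 3.

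Past the promoter, the acetylated stretch consisted of many weak, narrow peaks in introns 1 and 2. Leaving the promoter aside, the highest fold enrichments at the locus were 6.08, 6.52 and 7.48, and 58, 66 and 56 peaks were below 5. The median peak was 306, 301 and 294 bp wide, with 12, 13 and 15 fragments at its summit. Several summits within a peak were listed for 9, 9 and 15 peaks, and the widest peak, at the promoter, held 5, 4 and 5. With only peaks of a −log10 q of at least 5, 11, 15 and 27 remained and covered 4.28 ± 2.13% of the gene body. These are values of sorted cells in bulk, in which weak acetylation of many cells and strong acetylation of few cannot be told apart.

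Intron 1 spans 101 kb and held 39, 37 and 35 peaks by their strongest summit, which is 3.66 ± 0.198 per 10 kb (SD, n = 3). Intron 2 spans 85.4 kb and held 21, 32 and 31 peaks (3.28 ± 0.712 per 10 kb). Replicate 1 was the low library in intron 2, where its peaks covered 7.96% of the bases against 13.7% and 12.7% in replicates 2 and 3. In intron 1 the 3 libraries were close, with 15.5%, 14.6% and 15.5% of the bases covered. Exon 2 lay all or almost all under a peak in replicates 2 and 3 (fold enrichments 4.17 and 3.76) and under none in replicate 1.

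The far end of the stretch was set at the last peak before exon 3, so its position and length follow in part from that cut. The last peak before exon 3 ended 2482, 1565 and 1276 bp short of that exon, so that the stretch from the promoter measured 186, 187 and 188 kb (187 ± 0.727, SD, n = 3). Beyond exon 3, introns 3 to 7 and exons 3 to 8, together 47.3 kb, held 2 peaks in each library. In replicate 1, 1 of these lay in intron 3 at chr6:134225055-134225404, with a fold enrichment of 3.12. It was nearer to the last peak before exon 3 than the 27.7 kb of the longest gap inside the stretch of that library. Peaks stood at 3.21, 3.74 and 3.58 per 10 kb before exon 3 and at 0.423 per 10 kb from exon 3 on, and 96.8%, 97.2% and 97.1% of the gene-body peaks lay in the first 79.8% of the gene. The split at exon 3 was chosen after the positions were seen, so it was not tested.

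Both flanks of the gene were almost empty. Upstream, no peak was listed beyond the promoter region in the 50 kb taken, nor up to 930.0, 929.8 and 930.0 kb before the TSS in replicates 1, 2 and 3, a stretch in which GENCODE M21 annotates 19 genes, 2 of them protein-coding. Downstream, replicate 2 alone had a peak, of fold enrichment 3.31 in 9 fragments. The first peak past the 50 kb limit lay 53.2, 95.5 and 94.2 kb after the gene end, with fold enrichments of 4.44, 3.86 and 3.91.

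**Figure D2:**
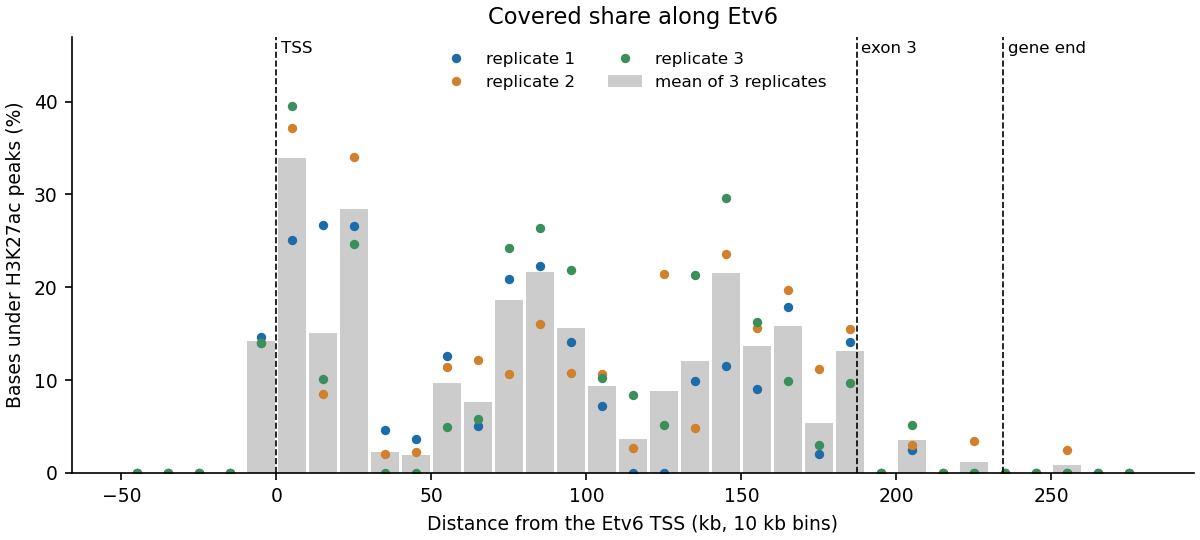
Share of bases under H3K27ac peaks in 10 kb bins along Etv6, by distance from the TSS in kb. Bars give the mean of 3 replicates, points give each replicate, and dashed lines mark the TSS, the start of exon 3 and the gene end. Coverage of single libraries reached 39.5% in the first bin, was at most 4.66% from 30 to 50 kb and at most 5.15% in any bin past 190 kb.

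Acetylation was not even along the stretch. By the mean of the 3 libraries the first 10 kb were the densest, at 25.1%, 37.2% and 39.5% of bases covered, and the bin from 20 to 30 kb followed with 26.6%, 34.0% and 24.6%. In replicate 1 the bin from 10 to 20 kb was the densest, at 26.7%, and in replicate 3 the bin from 140 to 150 kb, at 29.6%, exceeded that from 20 to 30 kb. Coverage was low from 30 to 50 kb, where no bin exceeded 4.66% in any library, and from 110 to 120 kb, where none exceeded 8.39%. In replicate 1 the longest gap ran for 27.7 kb from 107 kb after the TSS, and replicates 2 and 3 had 8 and 6 peaks inside it. In replicate 3 it ran for 24.3 kb from 29.9 kb after the TSS, where replicates 1 and 2 had 4 and 3 peaks. In replicate 2 it was 9.66 kb long. Elsewhere peaks followed each other closely, with a median gap of 1.29, 1.46 and 1.03 kb.

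Peaks of every library ran along the stretch, while most peak positions within it were found in 1 library. Of the 19 bins of 10 kb from the TSS, 15 held a summit in all 3 libraries and the other 4 in 2 of them. With 3.21, 3.74 and 3.58 peaks per 10 kb before exon 3, this follows in part from the number of peaks that chose the gene. Spearman's rho of the covered share across these bins was 0.38 for replicates 1 and 2, 0.69 for replicates 1 and 3 and 0.53 for replicates 2 and 3. Of the 123 merged regions, 21 (17.1%) were found in every library, 28 in 2 and 74 in 1. Over the genome 41.3% of regions were found in every library, and the share was 14.1% in distal intronic regions of other genes, meaning regions in an intron and over 2.5 kb from any TSS. The comparable regions of Etv6, 18 of 102 (17.6%), were near that second background. With peaks up to 200 bp apart merged, Etv6 had 93 regions, of which 25 (26.9%) were found in every library. With only peaks of a −log10 q of at least 5 it had 37 regions, of which 3 (8.11%) were. The background shares were not computed at these settings.

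Counted in bases, 22.5% of the gene body was under a peak of at least 1 library, 14.7% in 1 library only, 4.44% in 2 and 3.35% (7.86 kb) in all 3. Regions of 1 library were spread over the 3, with 23, 30 and 21 from replicates 1, 2 and 3. Replicates 2 and 3 shared 14 further regions, replicates 1 and 3 shared 9 and replicates 1 and 2 shared 5. Intron 1 had 13 of its 64 regions in all 3 libraries and intron 2 had 6 of 52.

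Among the weakest distal intronic peaks, the share overlapped by a peak of another library was higher at Etv6 than at other genes in 3 of 3 libraries. For peaks with 8 to 11 fragments at the summit, 10 of 15, 12 of 18 and 4 of 5 (66.7%, 66.7% and 80%) were overlapped, against 38.7%, 33.9% and 42.5% elsewhere. With 12 to 17 fragments the shares were alike, at 66.7%, 53.8% and 64.9% against 63.5%, 56.8% and 61.6%. With 18 or more fragments, Etv6 had few peaks (3, 7 and 16) and its shares of 66.7%, 71.4% and 87.5% stood against 92.7%, 90.9% and 87.3%. An overlap counts for both libraries concerned, so the shares of the 3 libraries are not independent. This split by fragments was added after the data were seen and was not tested. Peaks covered 13.1%, 15.2% and 15.2% of the stretch in the 3 libraries, and the part of this density in the overlap was not tested.

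**Figure D3:**
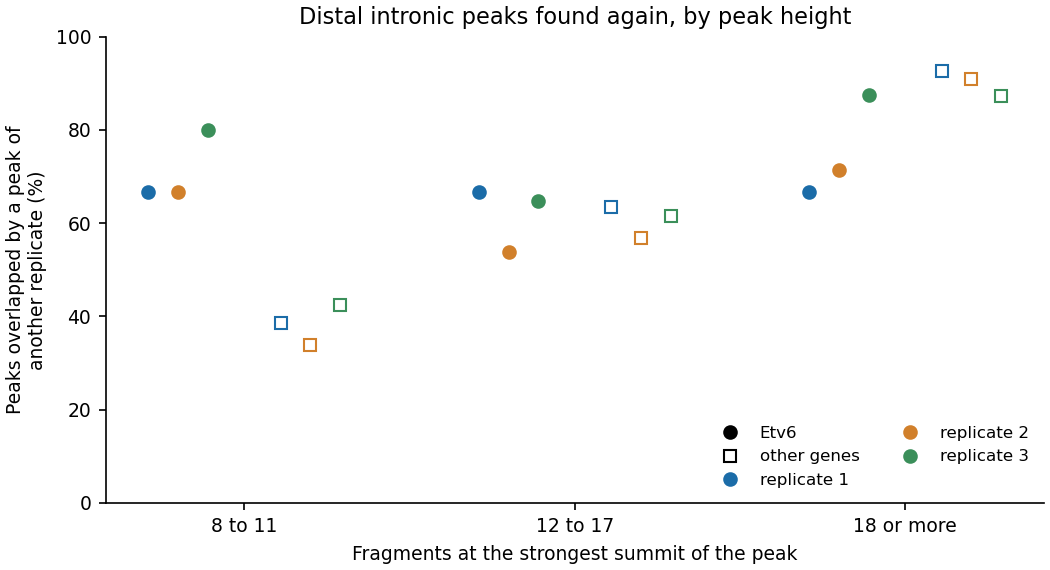
Share of distal intronic peaks overlapped by a peak of another replicate, in percent, for 3 classes of fragments at the strongest summit. Filled circles are peaks of Etv6, open squares are peaks of other genes and colours are replicates. Circles lie above squares in the class of 8 to 11 fragments, at 66.7% to 80% against 33.9% to 42.5%.

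The 21 regions found in all 3 libraries were the promoter, 13 regions of intron 1, 6 of intron 2 and 1 of intron 4. The 5 distal regions with the highest mean fold enrichment are those whose summit sequences are given above. Distal 1 (chr6:134058370-134060433) had fold enrichments of 4.47, 6.52 and 5.95, a mean of 5.65 ± 1.06. Distal 2 (chr6:134184855-134186340) had 4.87, 5.28 and 6.48, a mean of 5.54 ± 0.838. Replicate 3 was highest in distal 2 and replicate 2 in distal 1. Distal 3 (chr6:134119875-134121865) had 4.15, 5.79 and 6.39, a mean of 5.44 ± 1.16. Distal 4 (chr6:134060514-134061776), which directly follows distal 1, had 4.59, 5.15 and 5.92, a mean of 5.22 ± 0.670. Distal 5 (chr6:134134423-134135548) had 5.42, 3.68 and 6.00, a mean of 5.03 ± 1.21. The means of these 5 regions differed by less than the SD of any of them, so their order is not resolved by 3 libraries.

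Within these shared distal regions the strongest summits of the libraries lay apart. Strongest summits of 3 libraries spanned 994 bp in distal 1, 1056 bp in distal 2, 652 bp in distal 3, 730 bp in distal 4 and 150 bp in distal 5. Distal 1 to 5 joined 6, 5, 6, 3 and 5 peaks of the 3 libraries, so a span can compare different peaks. In distal 1, replicate 3 also had a summit 23867 bp after the TSS, beside 23779 and 23863 bp in replicates 1 and 2. Its strongest summit there, of fold enrichment 5.95, belonged to another peak, at 22869 bp. Over the 18 distal regions the median distance between summits of a pair of libraries was 115.5, 147 and 118 bp, against 97, 91 and 87.5 bp in 1418 distal intronic regions of other genes. Over all 14280 regions shared by the libraries it was 37 to 40 bp. The nearest pair of summits, in place of the strongest, lay a median of 46.3 ± 6.81 bp apart in the 21 shared regions of Etv6, against 99.7 ± 12.2 bp for the strongest.

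Fold enrichment ranked the shared regions differently from library to library. Spearman's rho between libraries over the 21 regions was 0.39 for replicates 1 and 2, -0.053 for replicates 1 and 3 and 0.33 for replicates 2 and 3. Over the 18 distal regions alone it averaged 0.13, from -0.20 to 0.31 by pair. It averaged 0.48 over 1418 distal intronic regions of other genes and 0.87 over all 14280 shared regions. The sets were matched neither in number nor in range of fold enrichment, so agreement at Etv6 and elsewhere cannot be ranked from these values. These correlations run across regions of the same 3 libraries and describe them only. Replicate 3 was higher than replicate 1 in 16 of the 21 regions and higher than replicate 2 in 16 of 21, with median ratios of 1.22 and 1.29. Over all 14280 shared regions it was higher in 10478 and 10275, with median ratios of 1.16 and 1.16.

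**Figure D4:**
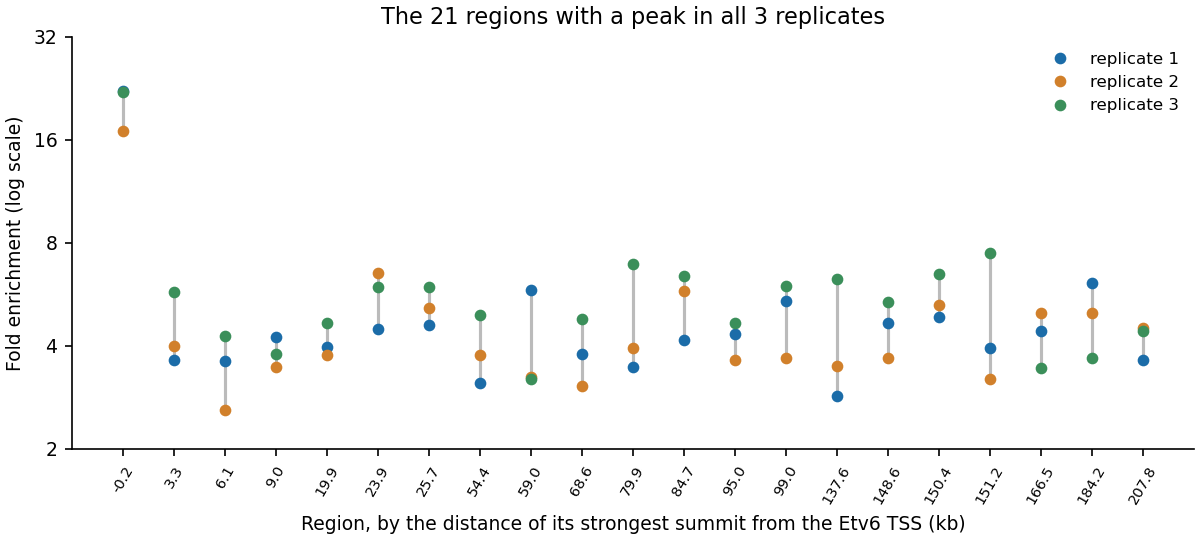
Fold enrichment, on a log scale, of the 21 regions with a peak in all 3 replicates, in order of the distance of their strongest summit from the Etv6 TSS in kb. Points are replicates and grey lines span them. The promoter stands at 16.96 to 22.3, the other 20 regions lie between 2.60 and 7.48, and no replicate is the highest throughout.

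One region of a single library was as strong as the regions shared by all. The median shared region reached 5.80 in its highest library. In intron 1, replicate 2 had a peak of 5.83 at chr6:134132984-134133275, overlapped by none in replicates 1 and 3. Replicate 3 had a separate peak of 4.43 close after it, at chr6:134133371-134133650. The other 73 regions of 1 library were below 5.80, the next being 5.70 in replicate 2 and 5.43 in replicate 3, both in intron 1.

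Most non-coding genes that start inside Etv6 had weak peaks near their TSSs. Peaks stood at 3.21, 3.74 and 3.58 per 10 kb before exon 3 in any case. Those near TSSs in introns 1 and 2 therefore cannot be told apart from the other peaks of the stretch. From exon 3 on the density was 0.423 per 10 kb. Gm17089, transcribed antisense to Etv6 from intron 4, had a peak that ended 97, 15 and 33 bp from its TSS in replicates 1, 2 and 3, together the region chr6:134243364-134243696, with fold enrichments of 3.63, 4.50 and 4.43 (4.18 ± 0.484, SD, n = 3). Its summits lay within 35 bp of each other, and it was the only region after exon 3 found in all 3 libraries. Gm17088, antisense in intron 2, had peaks within 2.5 kb of its TSS in all 3, the highest at 3.84, 3.71 and 6.25. Among them the region chr6:134173072-134173567 was common to the 3 libraries, with fold enrichments of 2.85, 3.49 and 6.25. Replicate 3 had the most peaks near the TSS of Gm17088. Of the 2 genes of unsettled status in intron 1, Gm43982 had a nearby peak in replicates 1 and 2 (3.63 and 3.00) and Gm43984 in replicate 1 only (4.30). 1700051K13Rik in intron 4 had none, and 4933406J09Rik overlaps the downstream flank with its TSS outside it.

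Counting these TSSs, 9, 9 and 12 peaks of Etv6 were TSS-proximal, and their median was close to that of the rest. The median fold enrichment of TSS-proximal peaks was 0.965, 1.02 and 0.936 times that of the other peaks of the locus, a mean ratio of 0.972 ± 0.0405 (exact two-sided sign-flip permutation test over 3 libraries, p = 0.5, where 0.25 is the smallest possible). Elsewhere in the genome the same ratio had a mean of 1.54 ± 0.0558 (SD, n = 3). The ratio at Etv6 was lower than elsewhere in 3 of 3 libraries (exact sign-flip permutation test, p = 0.25). With TSSs of protein-coding transcripts only, the mean ratio at Etv6 was 2.63 ± 2.75, an SD larger than the mean. In replicate 1 the promoter peak, of fold enrichment 22.3, was then the only TSS-proximal peak. Within 1 kb of a TSS the ratio was 1.10 ± 0.159.

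In height the distal intronic peaks of Etv6 were close to those of other genes. Their median fold enrichment was 3.89, 3.66 and 4.29, against 3.95, 3.94 and 4.25 in 4956, 5990 and 4593 distal intronic peaks elsewhere. The ratio was 0.985, 0.927 and 1.01, below 1 in 2 of 3 libraries (0.974 ± 0.0422, exact two-sided sign-flip permutation test, p = 0.5). Median width was 306.5, 315.5 and 291.5 bp against 282, 277.5 and 294 bp, a ratio of 1.07 ± 0.0739 (p = 0.5 by the same exact test). With a test that cannot go below 0.25, these values do not show that the peaks are alike.

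The local background was solved from the fold enrichment and p-value of each peak. The genome-wide level of a library was taken as the floor of these values, so a median above it follows from the construction. Relative to that level the local background was 1.19, 1.38 and 1.20 at the median distal intronic peak of Etv6, and 1.06, 1.04 and 1.09 at those of other genes. At the median of all peaks it was 1.19, 1.19 and 1.21. At the 220, 192 and 220 summits that a pair of libraries placed on the same base, the background was the same within 0.1% in 100% of cases. The 3 lists thus held 1 common background, so these values are not 3 independent measurements and no test is given, and the fold enrichments of the libraries share this denominator. The highest value at any peak of the locus was 2.47, 3.95 and 2.47. The part of this background in the height and number of the peaks was not tested.

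At their summits, the distal regions of Etv6 were compared with other distal intronic regions in sequence. The median GC content of 200-base windows was 49.3%, 49% and 48% at Etv6 and 49.5%, 50% and 50% elsewhere, lower in 3 of 3 libraries by a mean of 1.08 percentage points (difference -1.08 ± 0.878, exact two-sided sign-flip permutation test, p = 0.25). GC content is read from 1 reference sequence and the libraries share regions, so they are not independent measurements of it. Over the 104 distal regions, 102 of them intronic, it ranged from 35% to 58%. Repeat-masked bases made up 15.4% of the windows at Etv6 and 14.6% elsewhere, while windows without any were 33.7% and 42.3%, and the median window held 3 and 2 CpG dinucleotides.

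At least 1 of the 9 motifs was present in 76 of the 104 distal windows (73.1%), beside 69.4% of 10055 distal intronic windows of other genes. The commonest were GAGGAA, the less specific of the ETS strings, in 21.2% of the Etv6 windows and 20.8% elsewhere, and CACCTG in 19.2% and 16.4%. RUNX letters were in 18.3% and 16.8%, CAGCTG in 12.5% and 14.1%, and CAGATG in 11.5% and 15.6%. AP-1 letters were in 12 windows (11.5%) and 6.21% elsewhere, and GATA letters in 12 (11.5%) and 8.48%. The strict ETS string CCGGAA was rare in both, at 2.88% and 2.48%, as were the C/EBP letters at 4.81% and 7.23%. All 9 shares were counted in neighbouring regions of 1 gene and are given as descriptions.

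Among long genes, Etv6 ranked first by mean covered share and second by mean number of peaks, both of which follow from what chose it. It had the highest mean covered share of 2492 protein-coding genes of at least 100 kb, with 10.1%, 11.8% and 11.8% of its gene body under peaks (11.2 ± 1.00%, SD, n = 3). The median of these genes was 0.101%. Bcor itself, the gene carrying the deletion, followed with 11.8%, 9.46% and 11.9% (11.1 ± 1.39%), above Etv6 in replicates 1 and 3, and the order of the 2 genes is within their spread. Next came Elf1, another ETS family gene, with 10.2 ± 1.71%, above Etv6 in replicate 3 at 12.1%, then Anks1 with 9.69 ± 0.565%, Zmiz1, a transcriptional coactivator, with 9.15 ± 1.12% and Cyth1 with 8.25 ± 0.480%.

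By number of peaks, Etv6 was second of 21938 protein-coding genes, after Gm20388, a model of 4435 kb that spans many genes. Cux1, which encodes a homeodomain protein, had 67.3 ± 7.23 peaks in 319 kb, within the spread of Etv6. Arid1b, a subunit of the BAF remodelling complex, had 63.3 ± 1.53 in 353 kb, the forkhead gene Foxp1 56.3 ± 8.50 in 597 kb and Zmiz1 46.0 ± 6.08 in 208 kb. Agreement between libraries was alike in these genes, with 19.5%, 18.6%, 23.2% and 17.7% of their regions found in all 3 and 17.2% for the gene body of Etv6. Bcor and Elf1, shorter genes with fewer peaks, had 50% and 40.9%. The last 20% of the gene body held 2.97% of the peaks of Etv6, 0.939% of those of Cux1 and none of Bcor and Elf1, but 20.0% of those of Arid1b and 12.3% of those of Foxp1, so a sparse 3′ end was seen in some of these genes and not in others.

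**Figure D5:**
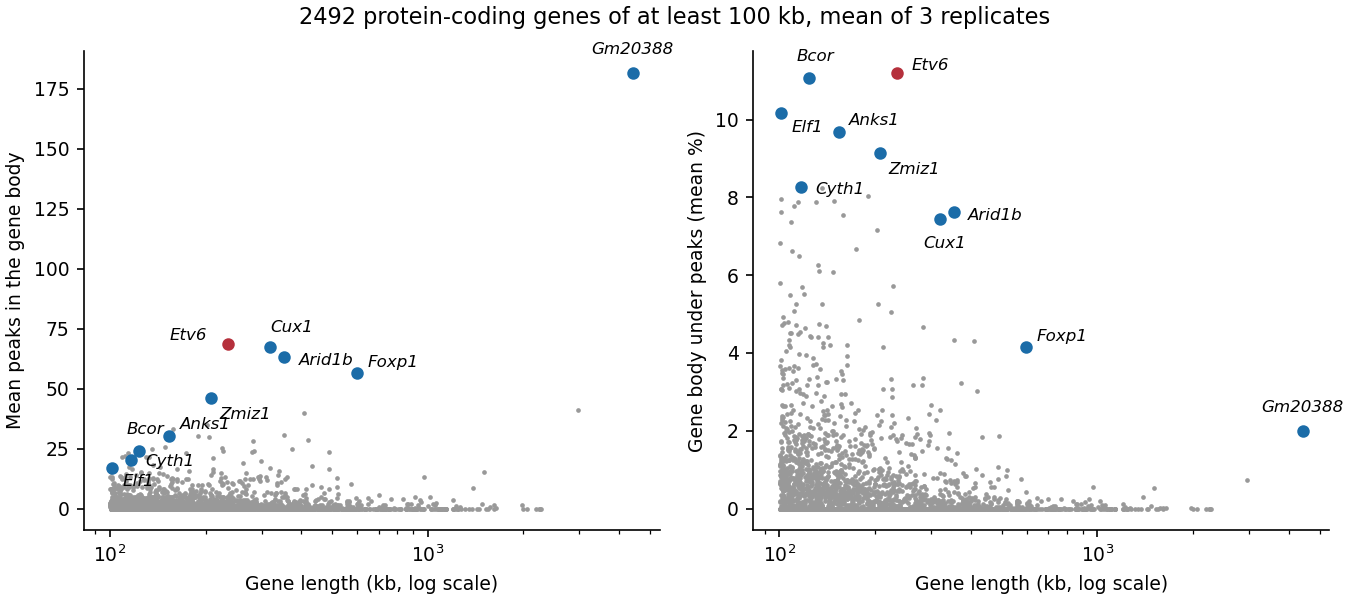
Mean number of H3K27ac peaks in the gene body (left) and mean percent of the gene body under peaks (right) against gene length in kb on a log scale, for 2492 protein-coding genes of at least 100 kb. Each point is a gene averaged over 3 replicates, with Etv6 in red and the genes named in the text in blue. Etv6 stands at 68.7 peaks and 11.2%.

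Among the 26 genes of the ETS family, Etv6 had the most peaks. Erg followed with 24.0 ± 1.73 peaks in a gene of similar length (227 kb), then Elf1 with 17 ± 2.00 and Fli1 with 14.0 ± 1.00. A TSS-proximal peak in all 3 libraries was present at 15 of the 26 genes, beside 43.9% of protein-coding genes, and at none of the 3 for 9 genes, which were Fev, Etv2, Etv4, Elf3, Elf5, Ehf, Spib, Spic and Spdef. At the promoter, its fold enrichment lay within the range of the family. The mean of 20.5 ± 3.03 was next to that of Fli1 (20.4 ± 3.41), an activator that binds Etv6 protein, and below the means of Elk4 (34.8) and Elf2 (23.8). Of 9 genes for proteins known to bind Etv6, 7 had 1 near their TSS in each library, among them the corepressor genes Ncor1 (22.4), Sin3a (16.3) and Hdac3 (6.96) and the acetyltransferase gene Kat5 (28.8). L3mbtl1 and Irf8 had none in any library.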

How the data were processed

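ChIP-seq for H3K27ac (antibody Abcam AB4729) was analysed in 3 libraries of BcorΔE9-10 KL cells. Per the labels and methods, the authors aligned reads to GRCm38 with Bowtie2 after adapter trimming (cutadapt 1.7, per the submitters' processing notes), removed duplicates and called peaks in each library separately with MACS2 2.1.1; the control and settings were not given in the sources used here. The deposited lists give each summit a fold enrichment (the ratio of fragments to local background, each plus 1), a −log10 p-value, a −log10 q-value, a position and a score, which was not used. These are the authors' values, not scaled between libraries.

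Summits listed for the same interval were collapsed to 1 peak, represented by the strongest (77, 87 and 91 rows at Etv6). Fragments and background were solved from fold enrichment and p-value (100% of rows solved), and depth was inferred from the background with fragments of 200 bp and a genome of 1870000000 bp; this was tested on simulated data. The smallest count listed limits what could be seen, and no molecular identifiers were used, so counting error only is covered. Peaks overlapping by 1 bp were merged. Genes and exons (those of transcript Etv6-201) came from GENCODE M21, sequence from the RefSeq GRCm38 assembly. Ratios were taken within each library and tested by an exact sign-flip permutation test over 3 libraries (scipy 1.17.1). Genes named were Etv6, all genes within 50 kb, the 5 genes most like it by peaks and by covered share, and the ETS, partner and marker lists, of which 2 marker lists are not reported here; regions named were every TSS-proximal region or its gene, the 5 strongest distal regions shared by 3 libraries and regions of 1 library above the median shared region. The members and lists were chosen with earlier results of these data known. Alternatives are given in the closing section, and those on overlap by fragments and on exon 3 were added after seeing the data.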

Additional observations from a re-analysis of the deposited data

How the results depend on the processing

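No paired analysis was possible because the 3 libraries form 1 group. With peaks of −log10 q of at least 5 only, members per library fell from 69.7 to 17.7, the covered share of the gene body from 11.2% to 4.28%, and the share of regions in all 3 libraries from 17.1% to 8.11% (3 of 37). That share was 26.9% when peaks up to 200 bp apart were merged, and without 1 replicate 26.4% to 35.3% of regions were found in both remaining libraries, where fewer libraries must agree. The mean ratio of TSS-proximal to other members turned from 0.972 to 1.10 within 1 kb of a TSS. With protein-coding TSSs only it was 2.63 ± 2.75, where replicate 1 held the promoter peak alone. Without 1 replicate it ranged from 0.9503 to 0.990. The correlation of fold enrichment between libraries, 0.22 on average, ranged from -0.053 (without replicate 2) to 0.39 (without replicate 3). The summit distance of 99.7 bp was 46.3 bp for the nearest pair and 89 to 113 bp without 1 replicate. Median GC content was 48.8% in 200-base windows and 47.6% with 250 bp on each side. A motif was present in 49.0% of windows with 50 bp on each side (43.8% elsewhere) and in 88.9% (16 of 18) of distal regions in all 3 libraries (68.6% elsewhere). The causes of these changes were not tested. Leaving out a replicate changed neither the direction of the distal intronic ratio (0.956 to 0.997) nor the members per library by 1.5 times (67 to 73). The 3 libraries allow no p below 0.25, and peaks with fewer than 8 fragments are not listed.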
